A study of Drosophila melanogaster with 3 samples.

Results

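The genes of the Mediator complex and of the general transcription factor TFIID were examined for binding of CG32006-GFP at their promoters. The members were the protein-coding genes with a symbol of the MED or Taf series, together with kto, skd, CycC, Cdk8 and Tbp, and 45 genes of the 13945 protein-coding genes on the 6 chromosome arms met this rule, 29 of Mediator and 16 of TFIID. The data came from chromatin immunoprecipitation with sequencing (ChIP-seq) with an antibody against GFP, on whole prepupae of both sexes, pooled, from 1 transgenic Drosophila melanogaster line that stably expresses CG32006 with GFP at its C-terminus. CG32006 lies on chromosome 4, and the RefSeq gene table gives FoxJ1, a forkhead family name, among its synonyms. The labels describe 3 biological replicates and no second condition, and their stated age, 48 days, exceeds that of a prepupa, so the stage is given here as named. The sequence that drives the transgene is not given in the sources used here, and in whole animals binding in a few tissues and weak binding in many cannot be told apart.

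Mediator is a large coactivator that carries signals from DNA-bound regulators to RNA polymerase II. It has head, middle and tail modules and a separable kinase module, which in the fly consists of kto, skd, Cdk8 and CycC. TFIID holds the TATA-binding protein, encoded by Tbp, and a set of TBP-associated factors, the TAFs, many of which pair through histone folds; it recognises core promoters and begins the assembly of the transcription machinery.

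A gene was counted as bound when a peak of the optimal list had its summit no more than 500 bp from the start of transcription (TSS) of any of its protein-coding transcripts. The optimal list is the authors' list of 11665 peaks thresholded by the irreproducible discovery rate, called on all 3 replicates together. Signal below is its deposited peak value, on a scale that is not stated (196.6 to 10302.8 in that list), so it ranks peaks within a list. Coordinates are in dm6.

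CG32006-GFP was bound at 8 of the 45 genes, namely 7 Mediator genes (MED17, MED27, MED30, MED31, MED4, MED8 and skd) and 1 TFIID gene (Taf2). The share was 17.8% (Wilson 95% interval 9.29 to 31.3%), close to the 19.1% of all protein-coding genes that were bound. Within it, Mediator stood at 24.1% (12.2 to 42.1%) and TFIID at 6.25% (1.11 to 28.3%), and both intervals include the value for all genes. The intervals cover counting error over genes only, and read depth is unknown.

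The 8 genes carried 11 promoter peaks, and the summit of the strongest of each gene lay inside a region of every replicate. The strongest promoter summit with 50 bp to either side is shown for 5 of the bound genes, in the direction of the gene and in falling order of signal, because the comparison of base composition rests on these windows. The sequences are from the RefSeq Release 6 genome, in dm6 coordinates. Capitals mark the longest unbroken run of A and T.
MED17 (chr3R:18188841-18188941, plus strand): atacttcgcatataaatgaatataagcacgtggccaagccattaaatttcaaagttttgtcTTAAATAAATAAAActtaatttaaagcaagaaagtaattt
MED27 (chr3R:5654945-5655045, plus strand): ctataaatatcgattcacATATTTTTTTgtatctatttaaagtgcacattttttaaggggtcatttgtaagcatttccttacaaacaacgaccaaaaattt
MED30 (chr3L:654209-654309, minus strand): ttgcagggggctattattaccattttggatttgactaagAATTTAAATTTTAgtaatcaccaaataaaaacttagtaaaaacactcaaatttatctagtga
MED31 (chr3R:4641693-4641793, plus strand): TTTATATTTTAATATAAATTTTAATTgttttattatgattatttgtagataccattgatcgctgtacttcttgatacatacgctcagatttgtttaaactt
skd (chr3L:21027775-21027875, minus strand): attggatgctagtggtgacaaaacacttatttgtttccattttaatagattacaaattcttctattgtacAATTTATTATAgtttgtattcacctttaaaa
These windows were poor in G and C, with 21.8 to 32.7% in the 8 bound genes and a median of 25.7%. The median over the 2676 promoter-proximal peaks of the optimal list was 32.7%, and it was 30.7% over the 1110 of them within the same range of signal, 465.2 to 1762.4. In all 8 genes the window had less G and C than the mean of the windows 500 bp to either side, as it did in 78.9% of the 2676 peaks and in 85.3% of the 1110. The flanks of the members had a median of 51.5%, against 44.6% for the 2676 peaks. The longest run of A and T within a window was 26 bp, upstream of MED31. It began at the first base of the window, so its full length may be greater. The median run within the windows was 12 bp, against 10.0 bp over the 2676 peaks.

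**Figure D1:**
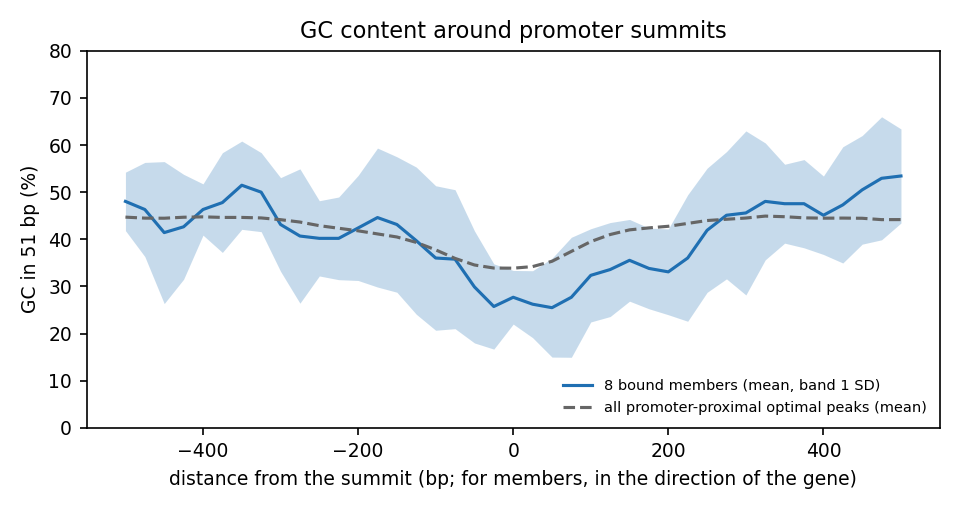
Mean GC content (%) in windows of 51 bp by distance from the summit (bp), for the strongest promoter peak of the 8 bound members (solid line, band 1 SD over genes) and for all 2676 promoter-proximal optimal peaks (dashed line). At the summit the members stood at 27.7 ± 5.69% (SD, n = 8 genes) and all promoter-proximal peaks at 33.9%.

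A search for 5 short motifs on both strands found few in these windows. No motif contains another. The forkhead word TGTTTAC was present in the Taf2 window alone, and in 2.69% of the promoter-proximal windows. TCGATA, the core of the BEAF-32 and DRE elements, was present in the MED27 window alone, against 4.86%. TATAAA occurred in the windows of MED17, MED27, MED31 and MED8, 4 of 8, against 21.9%. Neither GAGAG (11.1% of promoter-proximal windows) nor the homeodomain word TAATTA (10.9%) occurred in any of the 8. In the 300 bp promoters, from 250 bp before to 50 bp after the most upstream TSS, TCGATA was found in 19 of the 45 members (42.2%) and in 27.7% of all genes. TGTTTAC was found in 6 of the 45 (13.3%, against 9.19% of all genes), TATAAA in 24 (53.3%, against 45.8%), TAATTA in 14 (31.1%, against 20.4%) and GAGAG in 8 (17.8%, against 29.7%). A match describes the letters in the window, not a site of action.

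The head module of Mediator, which contacts RNA polymerase II, had 3 of its 9 genes bound. MED17, the central scaffold of the head, had the strongest promoter peak of any member (chromosome 3R, 18188649 to 18189141), with a signal of 1762.4 that ranked 395 among the 2676 promoter-proximal peaks. Its signal in the replicates' own lists was 469.1, 706.6 and 578.5 for replicates 1, 2 and 3, which are ranks 1094, 712 and 1129 of 30000. It was the first of the 8 genes in each replicate. MED30, a subunit of metazoan Mediator, had a peak of 1277.2 (chromosome 3L, 654059 to 654415), with 336.9, 503.8 and 439.4 in replicates 1, 2 and 3. MED8 had the weakest of the 8, at 465.2 (chromosome 2R, 20327103 to 20327270), with 129.0, 190.0 and 159.0, and it came last in each replicate list. In replicate 1 the summit of the MED8 region lay 136 bp from the optimal summit, against 20 and 14 bp in replicates 2 and 3. The other head genes, MED6, MED11, MED18, MED20, MED22 and MED28, were not bound.

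In the middle module 2 of 9 genes were bound. MED31 had its main peak 220 bp upstream of the TSS, at 1252.7 (chromosome 3R, 4641538 to 4641999), with 388.4, 418.7 and 450.3 in replicates 1, 2 and 3. A weaker summit of the same interval lay 15 bp from the TSS, at 243.9, and no replicate 2 region covered it. In replicates 1 and 3 it fell inside the region of the main peak. The summits of those regions lay 221 and 181 bp from it, so this support is not that of a separate peak. MED4 had a peak of 795.8 (chromosome 3L, 7250567 to 7250838), with 226.8, 309.6 and 248.8. Its summit fell in an exon of the antisense RNA gene asRNA:CR43470, and it was the only 1 of the 8 with no other protein-coding TSS within 500 bp. MED1, MED7, MED9, MED10, MED19, MED21 and MED26 were not bound.

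In the tail, which receives many activators, 1 of 7 genes was bound. That was MED27, with a signal of 1416 (chromosome 3R, 5654832 to 5655199), and 411.0, 560.5 and 439.3 in replicates 1, 2 and 3. It took place 2 of the 8 genes in replicates 1 and 2 and place 5 in replicate 3, where the genes in places 2 to 5 lay at percentiles 94.1 to 95.9 of that list. MED14, the scaffold that joins the modules, and MED15, MED16, MED23, MED24 and MED25 were not bound. The gene of the MED29 subunit, ix, has a symbol outside the rule and was not bound either.

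The kinase module had 1 of its 4 genes bound, skd, which encodes the subunit that links the module to the core of Mediator. skd is 34621 bp long, has 2 TSSs, and carried peaks at both. The stronger, at 646.4, lay 391 bp upstream of the nearer TSS (chromosome 3L, 21027733 to 21027966), with 169.9, 237.9 and 218.1 in replicates 1, 2 and 3. The other, at 520.1, lay 37 bp inside the transcript from the second TSS, in the 5' UTR. The gene body held 5 summits in all, and it was the only member with any summit inside the gene. The strongest of these was intronic, 14770 bp from the nearest TSS, and at 1350.0 it exceeded either promoter peak. Among the 202 protein-coding genes of 30000 to 40000 bp the median was 2.00 summits, and 64 had 5 or more. kto, Cdk8 and CycC, the partners of skd, were not bound, and their nearest summits were 42054, 10287 and 3799 bp away.

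In TFIID the single bound gene was Taf2, whose product contacts the initiator element of core promoters. It had adjacent peaks of 1236.9 (chromosome 3L, 9888655 to 9888916) and 1030.7 (9888918 to 9889153), 128 and 334 bp upstream of the TSS. The first had 346.6, 381.5 and 546.3 in replicates 1, 2 and 3, and in replicate 3 a single region covered both summits. Taf2 took places 4, 5 and 2 of the 8 genes in replicates 1, 2 and 3. Tbp was not bound, with the nearest summit 3646 bp away. Taf1, the largest TAF, Taf5 and Taf7 were not bound, nor was any of the 11 histone-fold TAFs (Taf3, Taf4, Taf6, Taf8, Taf9, Taf10, Taf10b, Taf11, Taf12, Taf12L and Taf13). The Wilson interval of 0 of 11 reaches 25.9%, above the share of all genes.

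**Figure D2:**
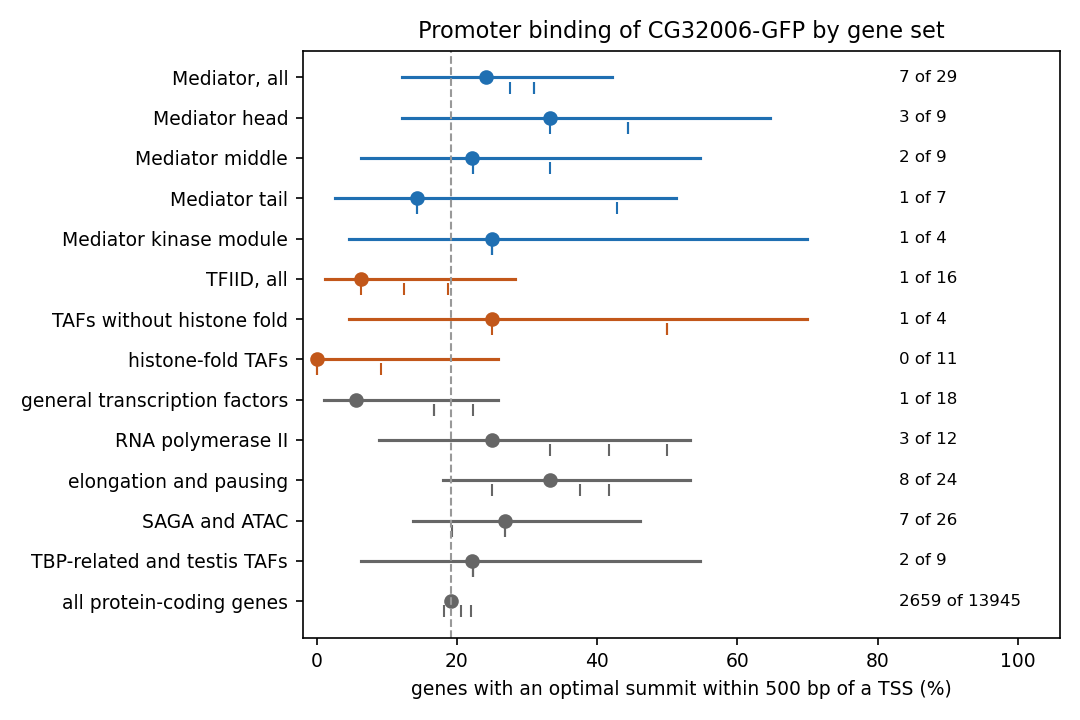
Share of genes (%) with an optimal summit within 500 bp of a TSS, for Mediator and its modules, TFIID and its parts, related transcription machinery and all protein-coding genes. Points are the optimal list, horizontal lines its Wilson 95% intervals, ticks the 3 replicate lists, and the dashed line the 19.1% of all genes; the interval of each set of members includes that line.

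The bound genes recurred fully in the replicates. Each replicate's own list of 30000 regions was cut to its 11665 strongest, and the optimal peaks of 8 of 8 bound members were supported there in all 3 replicates, against 1993 of the 2659 bound genes and 14.3% of all protein-coding genes. Because the optimal list was made from the same reads, this recurrence is a description. Counted from the replicate lists alone, 11, 10 and 11 members were bound in replicates 1, 2 and 3, or 23.7 ± 1.28% (SD, n = 3), where all genes stood at 20.5, 18.2 and 21.9%. Mediator had 9, 9 and 8 and TFIID 2, 1 and 3. The median signal of the 8 genes in the optimal list was 1244.8, against 691.4 for all bound genes, and 6 of the 8 exceeded that value. Among all bound genes with support by all 3 replicates the median was 898.3. MED27, MED30, MED31 and Taf2, from 1236.9 to 1416, changed places among themselves between replicates, while MED4, skd and MED8 kept the places 6, 7 and 8 in all 3.

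**Figure D3:**
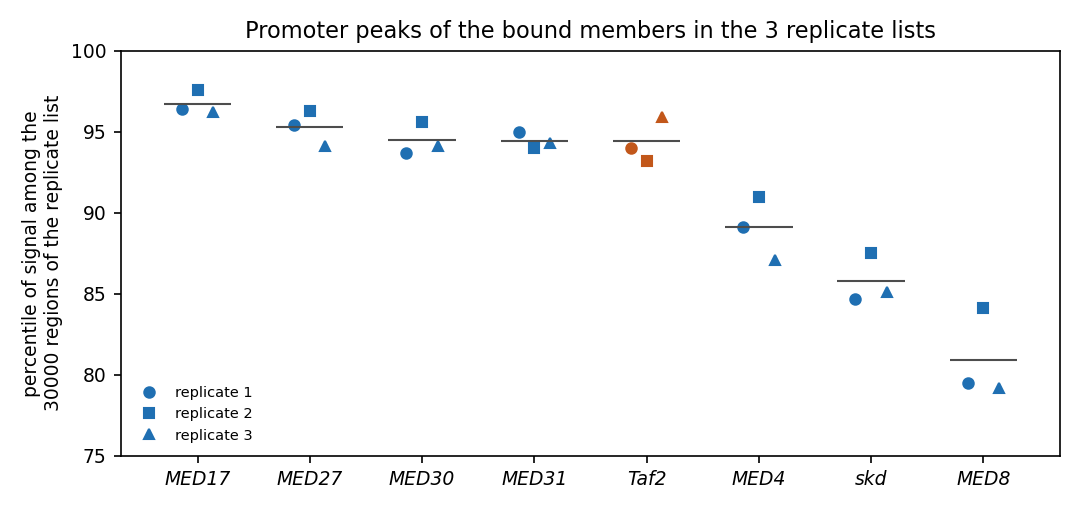
Percentile of the signal among the 30000 regions of each replicate's list, for the strongest promoter peak of the 8 bound members, with 1 point per replicate and a line at the mean. MED17 was highest at 96.7 ± 0.757 and MED8 lowest at 80.9 ± 2.75 (SD, n = 3).

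Most of the bound promoters were shared with a neighbour. At 7 of the 8 genes the strongest promoter summit also lay within 500 bp of the TSS of another protein-coding gene, against 42.6% of all bound genes. All 7 had such a neighbour on the opposite strand, and the summit lay nearer to the neighbour's TSS in 6 of them. Neither count was made over all bound genes, so they describe these 7 and do not set them apart. The MED30 summit was 170 bp from its own TSS and 104 bp from that of Rev1, which encodes a translesion DNA polymerase. The skd summit was 391 bp from skd and 90 bp from Pdss2, a gene of coenzyme Q synthesis. The Taf2 summit was 128 bp from Taf2 and 49 bp inside the 5' UTR of CalpB, a calpain gene. For MED27 the distances were 144 bp and 134 bp to elm, for MED8 336 bp and 128 bp to CG8929, and for MED31 220 bp and 95 bp to CG9775, in whose intron the summit lay. slx1 has the same TSS as MED31, on the same strand. MED17 alone among the 7 was nearer, at 181 bp against 184 bp for CG12321. Such a peak cannot be assigned to either gene of a pair. Most bound genes of the related machinery lists below also had another protein-coding TSS within 500 bp of their strongest promoter summit.

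Shared promoters were common in the whole set. Another protein-coding TSS lay within 500 bp of a TSS of 28 of the 45 members (62.2%), against 30.9% of all genes. Among the members with such a neighbour 7 of 28 were bound, against 27.4% of all genes of that kind, and among those without 1 of 17 was (5.88%, against 15.3%). Of the members, 84.4% had a single TSS, against 73.5% of all genes. All 8 strongest promoter summits lay upstream of the TSS, as at 84.6% of all bound genes.

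The 500 bp limit decided few cases. The bound gene nearest to the limit was MED8, with its closest summit at 336 bp, and the nearest one outside was MED15, a tail subunit that activators contact, with a summit at 571 bp and a signal of 1522.5 that all 3 replicates supported. The next after MED15 were Taf12 at 1419 bp and Taf10b at 1826 bp. The median distance from TSS to nearest summit was 4089 bp over the 45 members, against 5514 bp over all genes. The farthest was MED21, at 896685 bp. MED26 and Taf3 lie on chromosome 4, where 2 of 80 genes were bound (2.50%) and the optimal list holds 4 summits. The bound members lay on 3L (4 of 15 members, against 20.4% of all genes there), 3R (3 of 11, against 18.8%) and 2R (1 of 6, against 17.0%). On X 0 of 4 members were bound and on 2L 0 of 7, against 22.6 and 17.8% of all genes. The Wilson intervals of these counts of 0 reach 49.0% on X and 35.4% on 2L, so no difference between arms was detectable with so few members.

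**Figure D4:**
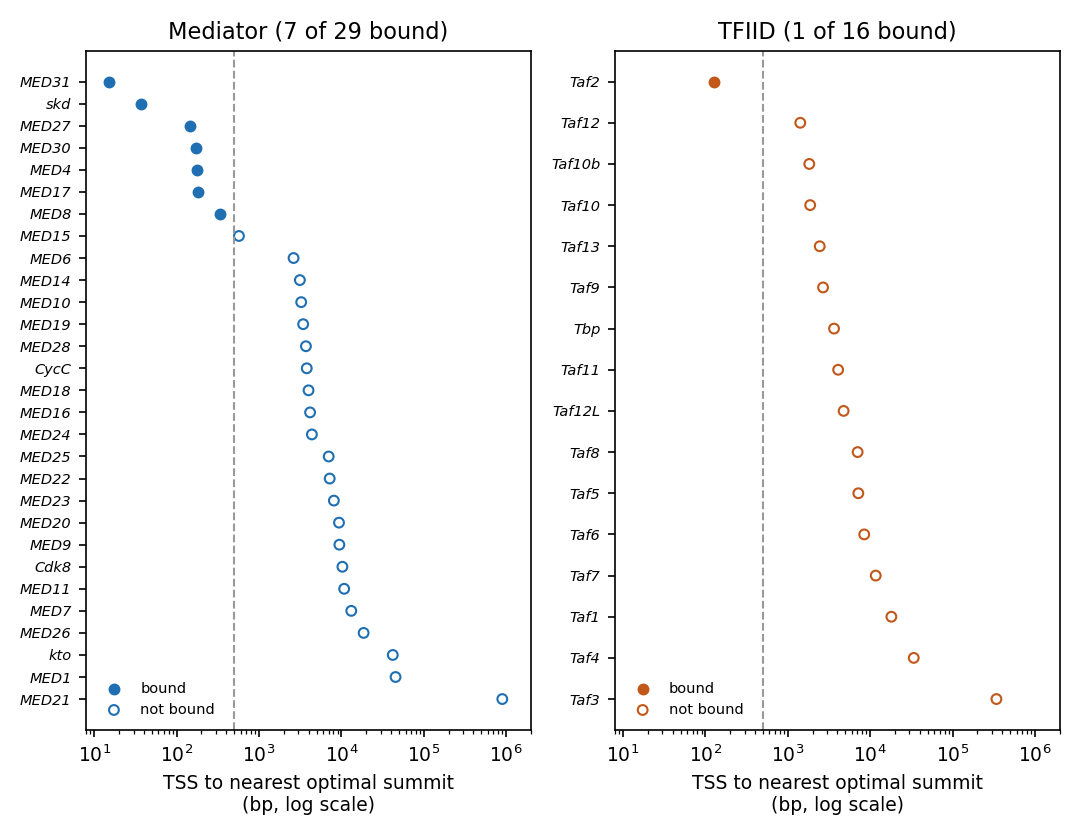
Distance (bp, log scale) from a TSS to the nearest optimal summit for each of the 29 Mediator genes and 16 TFIID genes, with filled points for bound genes and open points for the rest. The dashed line is the limit of 500 bp, and MED15 lies just beyond it at 571 bp.

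Members without an optimal peak differed in what the longer lists held. Of these 37 genes, 31 had no promoter summit among the 11665 strongest regions of any replicate, 4 had one in 1 replicate and 2 in 2 replicates. That is 83.8% with none and 5.41% with 2 or 3, against 91.4 and 2.76% of all genes that were not bound. The 2 genes were Taf5 and MED6. Taf5, a WD-repeat scaffold of TFIID, had a region of 330.3 in replicate 1 (rank 1968; chromosome 2R, 10879641 to 10879853) and 493.1 in replicate 3 (rank 1486), and no promoter region in the 30000 of replicate 2 or in the 30000 of the pooled list. MED6, which has 5 TSSs, had different regions in its replicates, which do not overlap. One was in replicate 1 (98.3, rank 7911; chromosome 3R, 9768232 to 9768687) and the other in replicate 3 (rank 9590; 9767605 to 9768088), with none in replicate 2 or the pooled list, so no single MED6 region recurred. Found in 1 replicate were MED16 (206.7 in replicate 2), MED21 (94.8 in replicate 1), MED25 (70.7 in replicate 2, rank 11654 with a −log10 q of 1.35) and Taf13 (78.3 in replicate 3, rank 11645), the last pair close to the limit of 11665. Just outside that limit in replicate 2 were MED19 (rank 11712) and MED23 (rank 11764), which had weak promoter regions in all 3 replicate lists of 30000 and pooled regions of 170.8 and 166.9. Taf13 had a pooled region of 181.7, just under the lowest optimal value of 196.6.

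Other parts of the transcription machinery, in 5 lists of 88 genes outside the rule, were bound at 21 genes (23.9%, Wilson interval 16.2 to 33.7%), against 19.1% of all genes. The interval of each list below also includes the 19.1%. The general transcription factors other than TFIID had 1 of 18, Ssl1 of TFIIH (signal 7819.9, a promoter shared with Chro). RNA polymerase II had 3 of 12, Polr2B, Polr2H and Polr2A (1690.3, 1374.6 and 309.0), which encode the second-largest, a small and the largest subunit. Elongation and pausing factors had 8 of 24 (33.3%, 18.0 to 53.3%), led by the CTD kinase gene Cdk12 (1429.4) and by TH1 (1178.3) and NELF-B (703.8) of the pausing factor NELF. All 3 replicates supported the peak at 4 of these 8 genes, Cdk12 and TH1 among them, and 2 replicates supported that at NELF-B. The SAGA and ATAC coactivators, of which SAGA shares TAFs with TFIID, had 7 of 26, and all 3 replicates supported the peak at 5 of these 7. The other peaks, of 203.6 and 200.4, lay near the lowest optimal value of 196.6 and had the support of 1 replicate each. The SAGA and ATAC list was led by the acetyltransferase gene Gcn5 (2957), its partner Ada2b (2273.3) and wda (1274.2). The list of TBP relatives, TBP regulators and testis TAFs had 2 of 9, NC2alpha (1275.5) and Hel89B (534.3), which encode TBP repressors. NC2beta, Trf and Trf2 of that list were not bound. Of the bound genes named in this paragraph, Ada2b alone had no other protein-coding TSS within 500 bp of its strongest promoter summit.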

How the data were processed

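The data were peak lists from ChIP-seq of 3 replicate samples of 1 group, in narrowPeak layout. The authors deposited, per the deposited files' names and notes, a list of peaks and background regions for each replicate, a pooled list of the same kind, and the optimal list. The signal value, the −log10 q-value and the summit offset of each peak are the authors' deposited values, read by the order of narrowPeak columns. For the aligner, the peak caller, the threshold of the optimal list and the depth, the sources used here name nothing. The dm6 lists were used, and the dm3 lists were not.

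Genes and TSSs of protein-coding transcripts came from Ensembl release 115 on the 6 arms, and sequence from the RefSeq Release 6 genome, which has the same coordinates. Summits were placed by adding the deposited offset to a peak's start, and 9 optimal offsets past the peak end were set to the last base. For replicates the 11665 strongest peaks were taken, and an optimal peak was supported when its summit lay inside one. The peak assignment was tested on simulated data with planted peaks. Intervals are Wilson at 95%, computed with scipy 1.17.1 in Python 3.11.15. No set test was made, because the members and lists were chosen with earlier results of these data known. Every member was named. In each related list the bound gene with the highest signal and at most 2 others were named. The lists held 90 entries, of which 1 appeared in 2 lists. Another, rye of the list with the testis TAFs, had no match of its own and is not in its count. The flanks, the A/T runs, the signal-matched peaks, the shared promoters and the counts of summits in gene bodies were added after the files were examined. Alternatives were other TSS distances, overlap rules, transcripts, thresholds, replicate lists and support without each replicate.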

Additional observations from a re-analysis of the deposited data

How the results depend on the processing

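The 8 bound members were all bound again with gene bodies, with TSSs of all transcripts, with the strongest 50% of peaks, with peaks supported by all 3 replicates, in each replicate's strongest peaks and without any 1 replicate (then 7 Mediator genes, 1 TFIID gene and 2104 to 2272 of all genes). Gene bodies and further TSSs only add to the main rule, so they could not lose a member. Leaving out a replicate could not either, because all 3 replicates supported the strongest peak of each member. The setting with support by all 3 replicates restates that recurrence. With TSSs of all transcripts neither the members' share of 17.8% nor the 19.1% of all genes changed. In the other settings where the members' share stayed at 17.8%, that of all genes moved. All genes stood at 26.3% with gene bodies, 12.9% with the strongest 50% of peaks and 14.3% with support by all 3 replicates, so the members lay below or above all genes depending on the setting. A distance of 200 bp lost MED8 (15.6% of members), and left 1549 of all genes (11.1%). A distance of 1000 bp, or counting peak intervals, added MED15 (20% of members, against 23.8 and 21.2% of all genes). From the lists of replicates 1 and 3 TFIID had 2 and 3 genes. Regions with a −log10 q of at least 2 in replicates 1 and 3 gave 11 Mediator genes, 3 TFIID genes and 14 in all in each, where all genes stood at 24 and 27.7%. In replicate 2 the same rule gave 8, 1 and 9 genes, with all genes at 16.5%.

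The median signal of bound Mediator genes was 1036.5 at 200 bp. It stayed at 1252.7 without any 1 replicate, as it had to, because all 3 replicates supported each of the strongest peaks. Its percentile was 85.9 in the optimal list, against 68.4 for all bound genes. Over the 9, 9 and 8 Mediator genes bound among the strongest peaks of replicates 1, 2 and 3 it was 72.0, 76.7 and 75.9, against 66.0, 69.3 and 64.4 for all bound genes, so the gap was narrower in each replicate. For all bound genes it was 638.0 at 200 bp, 898.3 with support by all 3 replicates and 822.9 to 847.5 without 1 replicate. Support by all 3 replicates held for 7 of the 8 members with a reciprocal overlap of 50% and for 8 with lists of 2 times the length.

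No paired analysis was possible because there was 1 group. Leaving out a replicate removed its support and not its reads from the pooled call. With 16 TFIID genes, 1 gene moves the share by 6.25 percentage points. Depth is unknown, so an absent peak is one not detected in these lists.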

Other observations

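Few strong replicate regions lay outside all pooled regions, and whether those of Taf5 were among them was not examined. Of the 2000 strongest regions of replicates 1, 2 and 3, the summit lay in no pooled region for 19 (0.950%), 4 (0.200%) and 24 (1.20%). Among all protein-coding genes, 312 had a promoter summit among the 11665 strongest of at least 2 replicates and none in the optimal list. Of these, 271 (86.9%) had no pooled region with a summit at the promoter. Taf5 is among these 271. The 312 genes were picked for having no optimal peak. This share therefore does not tell how often regions as strong as those of Taf5 (ranks 1968 and 1486) lack a pooled region. The cause was not tested.

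The 4 members that were not bound and had the strongest nearest summits were picked out after their values were seen. The summit nearest to Taf6, at 8473 bp, had a signal of 9843.5, and that nearest to Taf13, at 2444 bp, 5233.7. The summit nearest to MED28, at 3712 bp, had 3301.2, and that nearest to MED22, at 7211 bp, 3205.8. The value 9843.5 is also the highest promoter peak of all bound genes, among which Taf6 is not counted. Taf10 and Taf10b, which encode paralogous histone-fold TAFs and share a promoter region in opposite orientations, had their nearest summit in common, at 1155.4.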
